A study of Triticum aestivum with 14 samples.

Results

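The ovary and the lemma of the fertile wheat floret were compared by bulk RNA-seq of total RNA, across every gene of the deposited table. The libraries were taken by their titles: 3 Ovary libraries and 2 Lemma libraries (replicates 1 and 3), 5 of the 14 in the series. All came from untreated central spikelets of bread wheat (Triticum aestivum), sampled 21 days after the terminal spikelet stage, and all carry the label N50, which the labels do not explain. The labels give the tissue of every sample as spikelet, so the organ rests on the title alone, and no mutant allele or transgene is named. Nothing says that replicates came from separate plants, so p-values measure only the spread between these libraries, which may be technical. Total counts were 80349973 to 103924952 in Ovary and 98099271 to 100117298 in Lemma.

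The ovary is the female organ of the floret: its wall encloses the ovule, in which meiosis and the embryo sac arise, and after fertilization it becomes the grain. The lemma is a leaf-like bract that encloses the floret, with a cuticle, stomata, supporting tissue with lignified walls and green cells that fix carbon. The identity of floral organs depends on MADS-box transcription factors, among which AGAMOUS-type genes act in stamens and carpels.

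The libraries of both organs held very different sets of RNA. Of 76348 genes tested, 32619 were called (42.7%): 15550 were higher in Ovary than in Lemma (20.4%) and 17069 were lower (22.4%). At least 4-fold, 9369 were higher (12.3%) and 12666 lower (16.6%). Calls needed a change of at least 2-fold and an adjusted p (Benjamini-Hochberg) under 0.05 in the two-sided quasi-likelihood test of edgeR, which also gave every adjusted p below unless another is named. The FPKM (fragments scaled to gene-model length and library total) of the 3 Ovary and 2 Lemma libraries did not overlap for 56758 genes (74.3%), so a gene without overlap is common here. No count was found in either Lemma library for 2134 of the genes called higher, and no count in any Ovary library for 1876 of the genes called lower. The count filter also used the Anther libraries of the series, so genes with counts only in Anther could be among those tested. This holds for every share of tested genes given here. With Ovary and Lemma libraries alone, 70722 genes were tested, of which 14553 were higher and 16975 lower.

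The split into higher and lower genes moved with the scaling. The scale used was TMM, a trimmed mean of log ratios between libraries, and 47.7% of the calls were then higher in Ovary. With total counts alone as the scale, 26767 genes were higher and 13089 lower (67.2% higher), and the median log2 fold change of all genes was 0.71 in place of 0.05. With limma on log2(FPKM + 1), 14871 were higher and 9030 lower (62.2% higher), and with log2(FPKM + 0.1), 25786 and 13747 (65.2%). FPKM carry no TMM factor, so the ratio of 2 FPKM values exceeds the fitted fold change by 0.66 on the log2 scale. No gene was called in opposite directions by the first fit and any alternative.

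Only 14.1% of the tested genes have a deposited name or description, and the gene lists below rest on that text and on gene ontology terms. The plot of gene lists shows how far their members went one way.

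**Figure D1:**
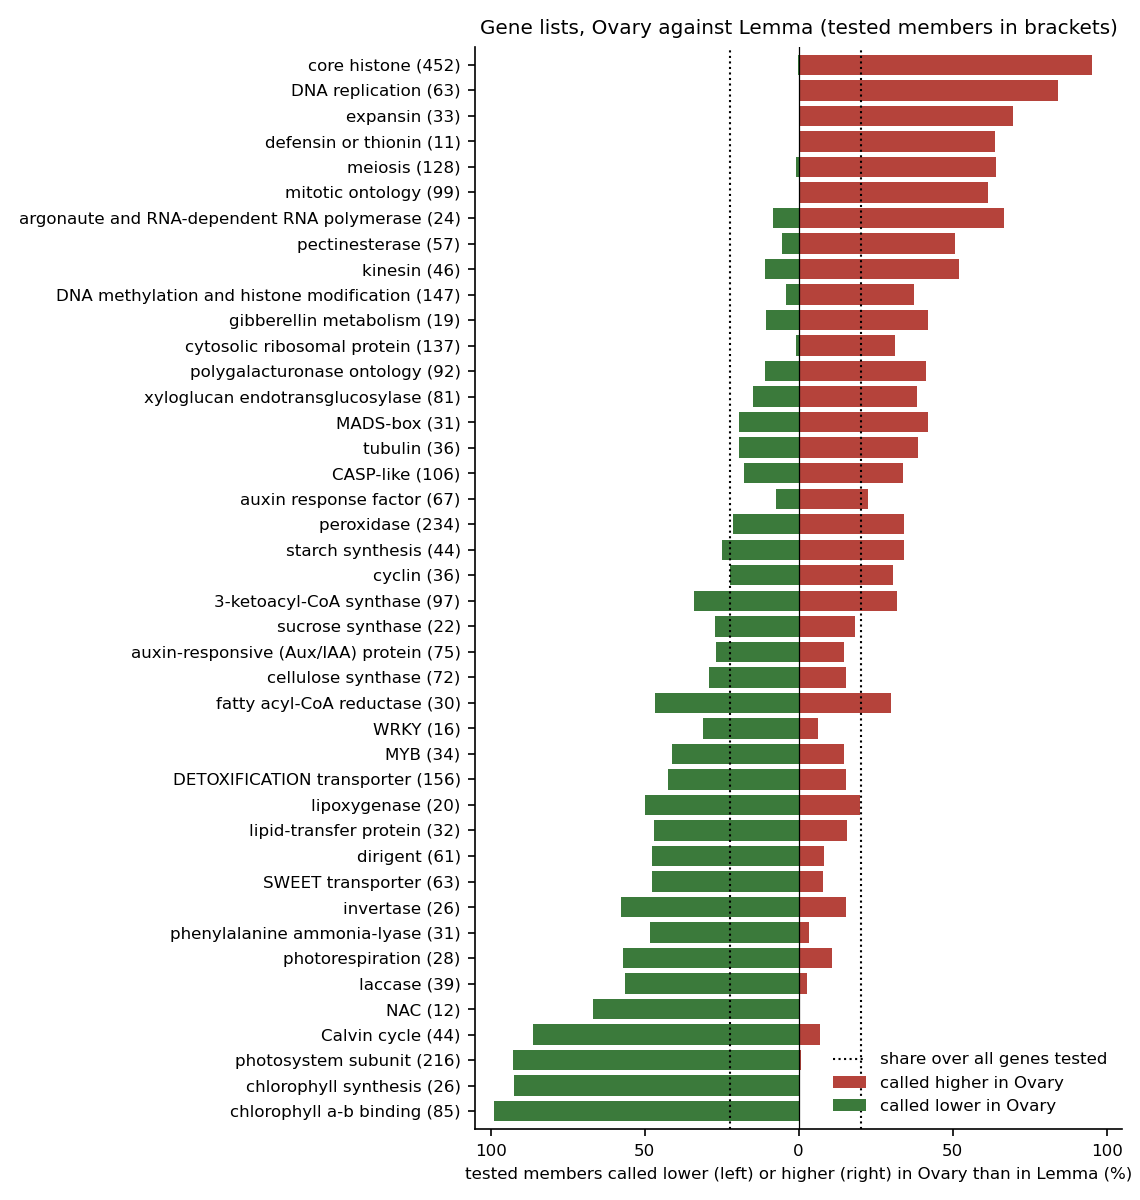
Share of the tested members of 42 gene lists called higher (red, to the right) or lower (green, to the left) in Ovary than in Lemma, in percent, with the number of tested members in brackets and dotted lines at the shares over all genes (20.4% and 22.4%). Core histone genes stand at one end with 95.4% higher, chlorophyll a-b binding protein genes at the other with 98.8% lower, and 3-ketoacyl-CoA synthase genes lay between them with 32.0% higher and 34.0% lower, a balance that turned under other settings.

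Markers of each organ were checked first. WAG-2m (TraesCS3D02G140200, chromosome 3D, positions 100852964 to 100860857), a wheat AGAMOUS-type MADS-box gene, had 20.1, 22.9 and 22.3 FPKM in the Ovary libraries, against 1.65 and 2.45 FPKM in the Lemma libraries. The Ovary libraries lay close together and far above both Lemma libraries (log2 fold change 2.77, SE 0.21, adjusted p = 2.09e-05). It is not particular to the ovary, as the 3 Anther libraries of the same floret averaged 75.2 FPKM. The MADS-box gene WM27A (TraesCS1B02G273300, chromosome 1B, positions 480437886 to 480442016) had 8.62, 8.09 and 8.34 FPKM in the Ovary libraries, against 0 and 0 FPKM in the Lemma libraries, and had no counts in Anther. With the Lemma group set to 3 counts in all, it was at least 522-fold higher in Ovary. WM27A was named for its rise among MADS-box genes, of which 6 were lower, and was not in the set of ovary markers. Genes with an ontology term for ovule, embryo sac or carpel did not stand to one side. Of 90 tested, 16 were higher (17.8%, against 20.4% of all genes) and 21 lower (23.3%). Of the markers of a green bract, 84 of 85 chlorophyll a-b binding protein genes and 200 of 216 photosystem genes were called lower in Ovary than in Lemma, against 22.4% of all genes.

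Genes of the stamen were looked at because the anthers stand beside the ovary. RAFTIN1A (TraesCS7A02G239800), which encodes a protein of the pollen wall made by the tapetum, had 0.182, 0.0540 and 0.0262 FPKM in the Ovary libraries, against 0.203 and 0 FPKM in the Lemma libraries, and averaged 362 FPKM in Anther. It was near 0 in both organs and was not called (adjusted p = 0.605). Pollen exine genes by ontology were higher in Ovary in 0 and lower in 3 of 19 cases, and strictosidine synthase genes by ontology in 6 and 7 of 35; in both lists the direction with more calls turned under other settings. Summed over the list, pollen exine genes had 70.7 to 80.7 FPKM in Ovary, 52.0 to 53.0 FPKM in Lemma and 93.2 to 105 FPKM in Anther, and strictosidine synthase genes 166 to 201 FPKM in Ovary, 95.4 to 147 FPKM in Lemma and 215 to 224 FPKM in Anther. An APETALA3-like gene (TraesCS7D02G380300), of the class that acts in stamens and lodicules, had 129, 125 and 109.5 FPKM in the Ovary libraries, against 25.5 and 23.6 FPKM in the Lemma libraries. That level in Ovary was near the 144 FPKM of Anther and well above Lemma (log2 fold change 1.69, SE 0.15, adjusted p = 5.01e-05). The part of stamen or lodicule tissue in the Ovary libraries was not tested.

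Of 31 MADS-box genes tested, 13 were called higher in Ovary (41.9%, against 20.4% of all genes) and 6 lower (19.4%, against 22.4%). TaAGL31 (TraesCS5D02G118200) had 29.0, 27.6 and 27.3 FPKM in the Ovary libraries, against 0.919 and 1.85 FPKM in the Lemma libraries (log2 fold change 3.71, SE 0.41, adjusted p = 0.000152). WM14 (TraesCS1A02G264300) had 126, 118 and 128 FPKM in Ovary and 15.2 and 21.6 FPKM in Lemma. WM13 (TraesCS7B02G286600) had 114, 102 and 88.2 FPKM in Ovary and 20.2 and 20.2 FPKM in Lemma. In each the lowest Ovary library was several times above the highest Lemma library. Higher levels in Ovary were found for 3 genes described only as MADS-box proteins, TraesCS5A02G286800, TraesCS5D02G294500 and TraesCS7B02G158600, with means of 183, 190.4 and 192 FPKM in Ovary, against 12.7, 13.4 and 15.3 FPKM in Lemma. They were called at log2 fold changes of 3.23, 3.21 and 3.03.

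The 6 MADS-box genes lower in Ovary included WM20 (TraesCS7D02G120500), which had 3.74, 7.06 and 7.66 FPKM in the Ovary libraries, against 85.4 and 92.7 FPKM in the Lemma libraries (log2 fold change -4.49, SE 0.44, adjusted p = 8.81e-05). TaAGL29 (TraesCS2A02G261200) had 1.08, 2.15 and 1.39 FPKM in Ovary and 25.4 and 26.5 FPKM in Lemma. AGLG1 (TraesCS5A02G391800) had 3.00, 4.88 and 4.15 FPKM in Ovary and 22.1 and 21.3 FPKM in Lemma, and MADS2 (TraesCS2B02G200800) had 15.9, 17.1 and 15.6 FPKM in Ovary and 45.8 and 48.5 FPKM in Lemma. None of these genes was silent in Ovary, whereas WM27A had no counts in Lemma. The plot of MADS-box genes gives every called member.

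**Figure D2:**
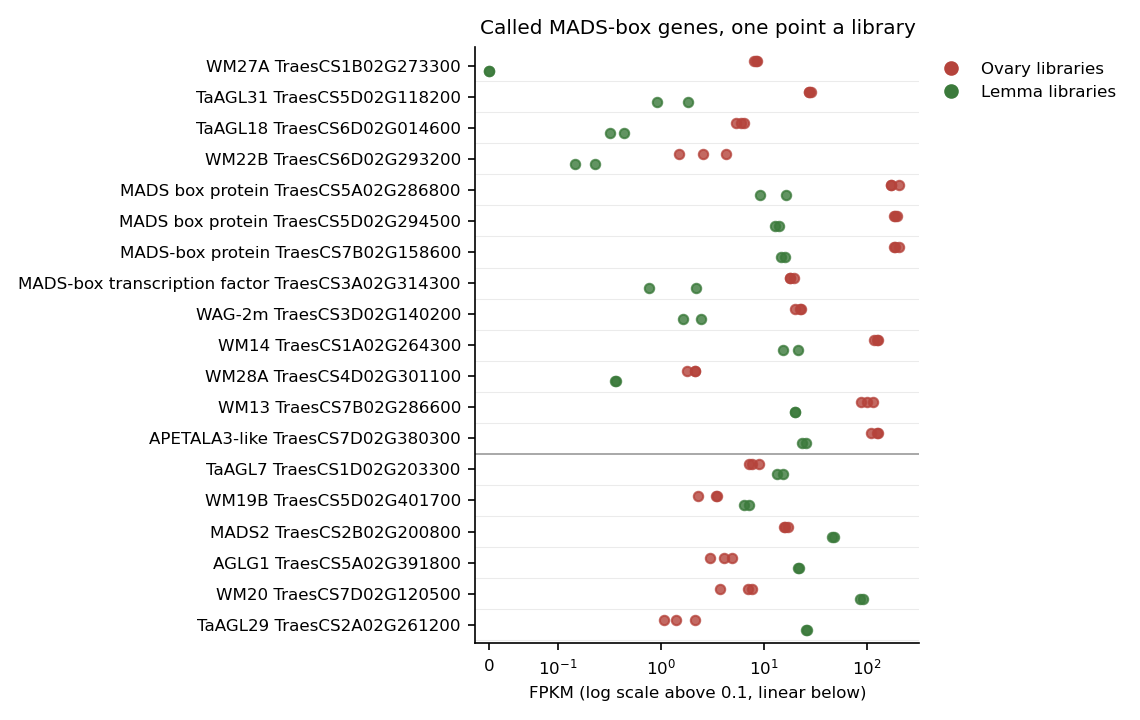
FPKM of the 19 MADS-box genes called between the organs, one point a library, on an axis that is logarithmic above 0.1 and linear below; Ovary libraries are red and Lemma libraries green, and a grey line parts the 13 genes higher in Ovary from the 6 that were lower. For every gene shown the points of the organs stand apart, and WM27A sits at 0 in both Lemma libraries.

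Genes for copying and dividing chromosomes were far more often higher than lower in Ovary: of 887 tested genes in 10 lists, 688 were higher and 24 lower, and they took 3.04 ± 0.352% of the counts in Ovary and 0.534 ± 0.0287% in Lemma (SD, n = 3 and 2). Of 452 core histone genes, whose products package new DNA, 431 were higher and 1 was lower, with a median log2 fold change of 6.92. The median was 6.71 with 41 genes set to their bound, those with no counts in 1 organ and over 3 in the other. The median over all genes was 0.05. Together the core histone genes took 1.74 ± 0.221% of the counts in Ovary and 0.0950 ± 0.0144% in Lemma. Histone H4 genes summed to 4755, 5268 and 6245 FPKM in the Ovary libraries, against 103 and 126 FPKM in the Lemma libraries, and H2B genes to 5489, 6178 and 7196 FPKM, against 153 and 187 FPKM. H3 and H4 form the core of the nucleosome and H2A and H2B complete it. By class, 110 of 119 H2A genes, 92 of 93 H2B genes, 102 of 108 H3 genes and 127 of 132 H4 genes were higher. The 1 lower gene, an H3 gene (TraesCS6A02G038500), was near 0 in both organs, with 0, 0 and 0 FPKM in Ovary and 0.108 and 0 FPKM in Lemma. In bulk samples, fewer cells of a type and less RNA per cell cannot be told apart, which holds for every list here.

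Of the 10 genes that rose most among those with a description and at least 10 FPKM, 9 encode core histones. All 10 had no counts in Lemma, with bounds from at least 531-fold for the H4 gene TraesCS5B02G215500 to at least 2970-fold for the H2A gene TraesCS6B02G058400. The H2A gene had 58.9, 70.7 and 88.9 FPKM in the Ovary libraries, against 0 and 0 FPKM in the Lemma libraries. Histone genes are near-identical copies and how the authors' counting divided shared reads is not given, so single copies are uncertain and the sums above are the firmer values. The remaining gene, TraesCS7A02G473200, encodes a DETOXIFICATION transporter, a family that exports small molecules from the cytosol, and had 17.1, 18.2 and 22.6 FPKM in the Ovary libraries, against 0 and 0 FPKM in the Lemma libraries. It was at least 1683-fold higher in Ovary, a bound that covers counting error only, as do the others.

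Among 63 DNA replication genes, 53 were higher and 0 lower (median 3.70). Replication protein A, which coats single-stranded DNA, was represented by TraesCS4B02G246900, with 13.1, 15.1 and 18.9 FPKM in the Ovary libraries, against 0.0110 and 0.0253 FPKM in the Lemma libraries. Proliferating cell nuclear antigen, the sliding clamp of the polymerase, had a copy (TraesCS6A02G373400) with 5.24, 6.85 and 6.45 FPKM in Ovary and 0 and 0 FPKM in Lemma. Both Lemma libraries were at or near 0 for these genes. The replication protein A gene passed with log2 fold change 8.99, SE 0.40, adjusted p = 1.35e-06, and the clamp gene was at least 369-fold higher in Ovary.

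Among 99 mitotic genes by ontology, 61 were higher and 0 lower (median 2.48). Kinesins, the motors of the spindle and of transport on microtubules, were higher in 24 and lower in 5 of 46. TraesCS1D02G248600 had 5.21, 6.52 and 5.77 FPKM in Ovary and 0.223 and 0.159 FPKM in Lemma, whereas TraesCS2A02G387400 had 3.06, 3.71 and 3.71 FPKM in Ovary and 18.6 and 13.3 FPKM in Lemma. Structural maintenance of chromosomes genes, for cohesin, condensin and their relatives, were higher in 8 and lower in 1 of 20. TraesCS1B02G326400 had 5.18, 7.70 and 7.59 FPKM in Ovary and 0.0556 and 0.0799 FPKM in Lemma. The 1 lower gene, TraesCS2A02G457500, was near 0 in both organs, with 0, 0 and 0 FPKM in Ovary and 0.0230 and 0.0136 FPKM in Lemma. Tubulin genes were 14 higher and 7 lower of 36, or 38.9% and 19.4%, so the share lower was near the 22.4% of all genes. The beta-tubulin gene TraesCS5A02G534300 had 11.8, 13.1 and 18.8 FPKM in Ovary and 0.193 and 0.441 FPKM in Lemma, and the more abundant TraesCS1A02G258800 had 28.2, 32.5 and 34.5 FPKM in Ovary and 64.0 and 66.0 FPKM in Lemma. The cyclin list, with 29 of its 38 listed genes matched on ontology terms, had 11 higher and 8 lower of 36 tested. These are 30.6% and 22.2%, beside 20.4% and 22.4% over all genes. The 11 include 3 genes for a regulatory subunit of cyclin-dependent kinases, such as TraesCS4A02G410900 (35.7 ± 1.94 FPKM in Ovary and 3.51 ± 0.598 FPKM in Lemma). The division lists also hold cyclin-dependent kinase inhibitors, which hold back the cycle, and 7 of 16 were higher and 1 lower. TraesCS7B02G077100, with an ontology term for cell cycle arrest, had 5.98, 6.24 and 12.1 FPKM in Ovary and 1.35 and 0.827 FPKM in Lemma, with Ovary replicate 3 the highest, and its call ended without Lemma replicate 3 (adjusted p = 0.0700).

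Meiosis genes, with 127 of the 133 listed matched on ontology terms, were higher in 82 and lower in 1 of 128 tested (median 2.48). The gene described as Meiosis 5 (TraesCS3A02G314100) had 178, 180.5 and 181 FPKM in the Ovary libraries, against 2.80 and 5.89 FPKM in the Lemma libraries. Its Ovary libraries were almost equal, and both Lemma libraries were far below them (log2 fold change 4.75, SE 0.50, adjusted p = 0.000128). The recombinase gene Disrupted meiotic cDNA 1 (TraesCS5B02G131900), which acts in recombination between homologous chromosomes, had 6.83, 7.72 and 7.40 FPKM in Ovary and 0.186 and 0.566 FPKM in Lemma. Meiosis 5 averaged 9.68 FPKM in Anther and the recombinase 0.698 FPKM, both below Ovary.

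Chromatin and small RNA genes followed the same direction more loosely. DNA methylation and histone modification genes were higher in 55 and lower in 6 of 147, and argonaute and RNA-dependent RNA polymerase genes, which act in RNA silencing, were higher in 16 and lower in 2 of 24. A DNA (cytosine-5)-methyltransferase gene (TraesCS2A02G235900) had 9.31, 12.0 and 12.4 FPKM in the Ovary libraries, against 0.117 and 0.0791 FPKM in the Lemma libraries (log2 fold change 6.21, SE 0.33, adjusted p = 3.35e-06). Argonaute 4 (TraesCS3A02G188400), which guides DNA methylation by small RNA, had 73.0, 125 and 121 FPKM in Ovary and 10.7 and 10.5 FPKM in Lemma; Ovary replicate 1 was the lowest of its group. Of the 6 genes against the direction, 3 are histone deacetylase genes on the group 5 chromosomes, TraesCS5A02G119300, TraesCS5B02G121300 and TraesCS5D02G126600. TraesCS5A02G119300 had 5.18, 4.62 and 6.14 FPKM in Ovary and 47.0 and 58.4 FPKM in Lemma, and the log2 fold changes of the 3 copies were -3.93, -3.50 and -3.86.

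Cytosolic ribosomal protein genes were higher in 43 and lower in 1 of 137, with a median of 0.83. Their number depended on the scaling: 26 to 125 were higher over the alternatives, with 1 lower in each. They took 1.57 ± 0.153% of the counts in Ovary and 0.561 ± 0.0695% in Lemma. The 40S protein S30 gene TraesCS6D02G356300 had 138, 148 and 159.7 FPKM in Ovary and 19.7 and 33.8 FPKM in Lemma. The single lower gene, TraesCS4D02G170100 for protein L19, had 2.85, 2.65 and 3.25 FPKM in Ovary and 15.1 and 15.4 FPKM in Lemma.

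Photosynthesis genes went in the other direction. Of the 439 tested genes in 7 photosynthesis lists, 396 were lower and 11 higher, and together they took 0.296 ± 0.0104% of the counts in Ovary and 11.4 ± 0.263% in Lemma. The plot of count shares sets them beside the lists of division.

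**Figure D3:**
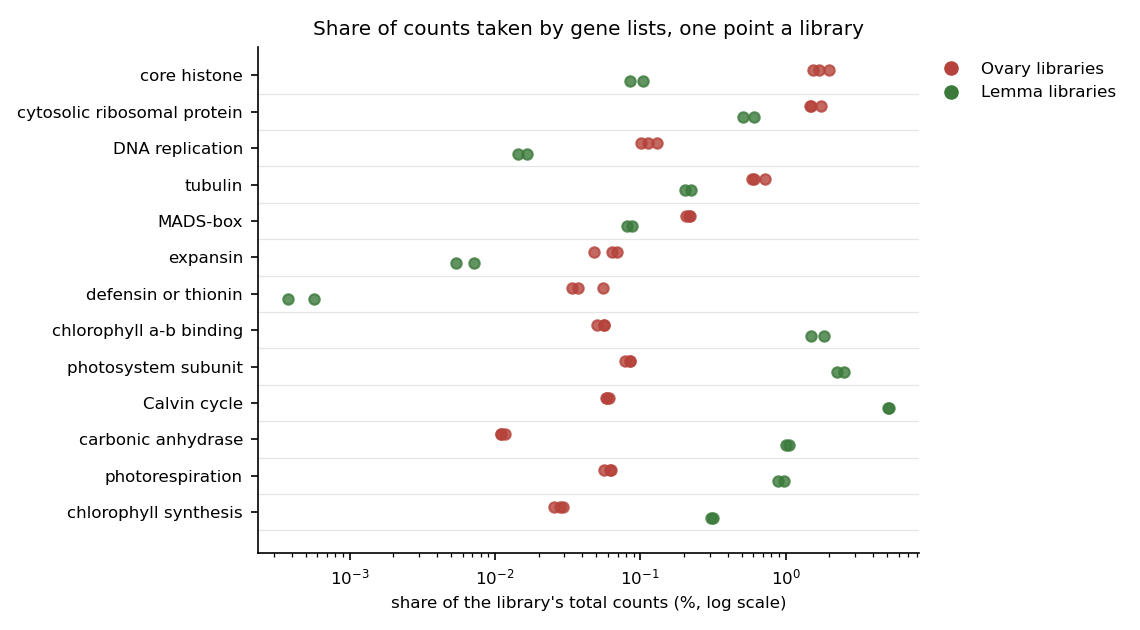
Share of each library's total counts (percent, logarithmic axis) taken by 13 gene lists, one point a library, Ovary red and Lemma green. The Calvin cycle list takes 5.11% on average in Lemma and 0.0593% in Ovary, the core histone list 1.74% in Ovary and 0.0950% in Lemma, and in no list shown do the libraries of the organs overlap.

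Chlorophyll a-b binding protein genes, for the antenna that gathers light, numbered 85, of which 84 were lower and 0 higher (median -6.24). TraesCS5B02G462800 had 0.0188, 0.00414 and 0.0251 FPKM in the Ovary libraries, against 29.8 and 33.7 FPKM in the Lemma libraries (log2 fold change -11.40, SE 0.29, adjusted p = 2.1e-07). The one member not called, TraesCS6B02G312900, singled out after its values were seen, had 0.404, 0.516 and 0.860 FPKM in Ovary and 0.649 and 0.779 FPKM in Lemma and was low in both organs. Photosystem subunit genes were lower in 200 and higher in 2 of 216. The 2 exceptions, named after their values were seen, are TraesCS1D02G332000 and TraesCS6D02G213400. They carry no description but ontology terms for photosystem II. TraesCS1D02G332000 had 18.6, 17.8 and 17.2 FPKM in Ovary and 1.42 and 1.21 FPKM in Lemma. Genes named after chloroplast-encoded subunits numbered 26, of which 25 were lower and 0 higher, and psaC (TraesCSU02G270000), for the iron-sulfur centre of photosystem I, had 2.65, 2.43 and 1.71 FPKM in Ovary and 215 and 167 FPKM in Lemma.

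Calvin cycle genes, for carbon fixation, were lower in 38 and higher in 3 of 44 (median -8.84), and 6 genes for the small chain of Rubisco, which fixes carbon dioxide, were the most abundant described genes of Lemma. TraesCS5D02G169900 had 34.6, 35.2 and 33.6 FPKM in the Ovary libraries, against 6022 and 6182 FPKM in the Lemma libraries (log2 fold change -8.09, SE 0.13, adjusted p = 1.57e-07). A further copy, TraesCS2D02G065500 (chromosome 2D, positions 27891136 to 27892278), had 0, 0 and 0 FPKM in Ovary and 216 and 173 FPKM in Lemma and was at least 16530-fold lower in Ovary. Copies on 2A and 2B, TraesCS2A02G066900 and TraesCS2B02G078900, had means of 0.835 and 0.741 FPKM in Ovary, against 776 and 633 FPKM in Lemma. These copies are alike in sequence, so how reads were divided between them is uncertain. The 3 members that were higher, TraesCS7A02G302300, TraesCS7B02G202400 and TraesCS7D02G297600, carry terms for a transaldolase activity of the pentose phosphate pathway. TraesCS7B02G202400 averaged 20.9 ± 0.931 FPKM in Ovary and 2.46 ± 0.770 FPKM in Lemma.

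Carbonic anhydrase, which interconverts carbon dioxide and bicarbonate, was divided within a small family: 9 genes were lower and 3 higher of 14. TraesCS3D02G223300 had 10.7, 9.82 and 9.26 FPKM in the Ovary libraries, against 2260 and 2071 FPKM in the Lemma libraries, and its counterparts TraesCS3A02G230000 and TraesCS3B02G259300 averaged 8.25 ± 0.960 FPKM in Ovary and 1971 ± 152 FPKM in Lemma, and 9.69 ± 0.852 FPKM in Ovary and 1594 ± 22.1 FPKM in Lemma. These 3 had log2 fold changes of -8.38, -8.51 and -7.98. The 3 higher genes, named after their values were seen, are TraesCS3A02G230100, TraesCS3B02G259400 and TraesCS3D02G223200. They carry the neighbouring identifiers on the same chromosomes and had log2 fold changes of 2.60, 2.71 and 2.29. They were weak in both organs, as TraesCS3D02G223200 shows with 2.32, 2.35 and 2.19 FPKM in Ovary and 0.390 and 0.216 FPKM in Lemma.

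Photorespiration genes, which recycle the product of Rubisco's reaction with oxygen, were lower in 16 and higher in 3 of 28. The 3 higher genes were near 0 in both organs, at no more than 0.0579 FPKM in any Ovary library and 0 FPKM in Lemma. The glycolate oxidase gene TraesCS5B02G426500 had 0.666, 0.640 and 0.712 FPKM in Ovary and 459.7 and 449 FPKM in Lemma, and the catalase gene TraesCS5A02G498000 had 0.290, 0.217 and 0.111 FPKM in Ovary and 130.1 and 125 FPKM in Lemma. Their Ovary values were under 1 FPKM in every library. Chlorophyll synthesis genes were lower in 24 of 26 and higher in 0. Glutamyl-tRNA reductase (TraesCS1A02G057200), at the start of that route, had 0.706, 0.705 and 0.750 FPKM in Ovary and 27.6 and 30.6 FPKM in Lemma.

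Sugar genes were divided by family. SWEET transporters, which let sucrose and other sugars out of cells, were lower in 30 and higher in 5 of 63 (median -1.65). TraesCS6D02G367400 had 0.0985, 0 and 0.161 FPKM in the Ovary libraries, against 76.9 and 28.0 FPKM in the Lemma libraries, with Lemma replicate 1 well above replicate 3 and all Ovary libraries near 0 (log2 fold change -9.87, SE 1.02, adjusted p = 0.000116). In the other direction TraesCS5D02G297100 had 80.0, 94.8 and 89.7 FPKM in Ovary and 16.7 and 37.8 FPKM in Lemma (log2 fold change 1.07, SE 0.34, adjusted p = 0.0277), and was the stronger in level. That call ended under 6 of the alternatives, and without Lemma replicate 1 its log2 fold change was 0.60. Invertase genes, for enzymes that split sucrose into glucose and fructose, were lower in 15 and higher in 4 of 26 (median -2.13). TraesCS6B02G031600 had 0.633, 0.930 and 1.65 FPKM in Ovary and 24.2 and 29.4 FPKM in Lemma, and its neighbours by identifier TraesCS6B02G031500 and TraesCS6B02G031700 were lower too, at log2 fold changes of -4.48 and -4.12. TraesCS4A02G484800 was higher, at 16.8, 18.6 and 11.1 FPKM in Ovary and 1.22 and 1.10 FPKM in Lemma, and far higher still in Anther at 149 FPKM.

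Sucrose synthase genes, which cleave sucrose reversibly, were 4 higher and 6 lower of 22, a balance that turned under 5 of the alternatives. TraesCS4D02G169800 had 39.0, 38.2 and 26.1 FPKM in Ovary and 8.20 and 7.50 FPKM in Lemma, and TraesCS4A02G446700 had 1.54, 2.25 and 1.43 FPKM in Ovary and 9.64 and 5.87 FPKM in Lemma. Fructan genes were 2 higher and 1 lower of 4. Sucrose:fructan 6-fructosyltransferase (TraesCS4A02G485400), which builds fructan, had 58.8, 59.0 and 66.9 FPKM in Ovary and 5.89 and 6.25 FPKM in Lemma. Sucrose:sucrose 1-fructosyltransferase (TraesCS7D02G008700), the first enzyme of that route, had 52.5, 63.0 and 65.9 FPKM in Ovary and 11.0 and 8.24 FPKM in Lemma. An exohydrolase that degrades fructan, 1-FEHw2 (TraesCS6D02G064400), had 7.27, 6.82 and 6.13 FPKM in Ovary and 11.2 and 11.2 FPKM in Lemma. That call ended under 3 alternatives, at a log2 fold change of -0.69 with total counts alone, where it no longer reached 2-fold.

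Starch synthesis genes were 15 higher and 11 lower of 44 (34.1% and 25.0%, against 20.4% and 22.4% of all genes). Genes of the first committed step went both ways. Glucose-1-phosphate adenylyltransferase (AGPase) makes the sugar nucleotide that starch is built from. Its gene TraesCS1D02G427400 (chromosome 1D, positions 479889259 to 479894164) had 94.9, 91.5 and 87.2 FPKM in the Ovary libraries, against 2.73 and 3.97 FPKM in the Lemma libraries (log2 fold change 4.15, SE 0.20, adjusted p = 2.2e-06). The copies TraesCS5A02G472000, TraesCS5B02G484700 and TraesCS5D02G484500 went the other way. TraesCS5D02G484500 had 1.90, 2.48 and 1.49 FPKM in Ovary and 50.5 and 47.6 FPKM in Lemma (log2 fold change -5.26, SE 0.22, adjusted p = 9.98e-07). The starch synthase gene TraesCS7D02G190100, for chain elongation, had 13.7, 12.7 and 12.4 FPKM in Ovary and 0.0149 and 0.129 FPKM in Lemma.

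Such opposite members were found in several families, and the plot of families shows some that were chosen for them. Over all genes 20.4% were higher and 22.4% lower, so members called both ways can occur in any large family. Lipoxygenases, which oxidise fatty acids in the route to jasmonate and other oxylipins, were lower in 10 and higher in 4 of 20. TraesCS5D02G388700 had 92.5, 111 and 95.8 FPKM in the Ovary libraries, against 0.751 and 1.83 FPKM in the Lemma libraries (log2 fold change 5.65, SE 0.43, adjusted p = 2.05e-05), and TraesCS5B02G382300 had 42.9, 49.2 and 41.9 FPKM in Ovary and 0.597 and 1.01 FPKM in Lemma. TraesCS1B02G226400 had 0.360, 0.443 and 0.388 FPKM in Ovary and 5.71 and 6.17 FPKM in Lemma, at log2 fold change -4.52. Both genes on the group 5 chromosomes were at most 1.83 FPKM in Lemma. The call of TraesCS5B02G382300 ended without Lemma replicate 1 (adjusted p = 0.0526).

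**Figure D4:**
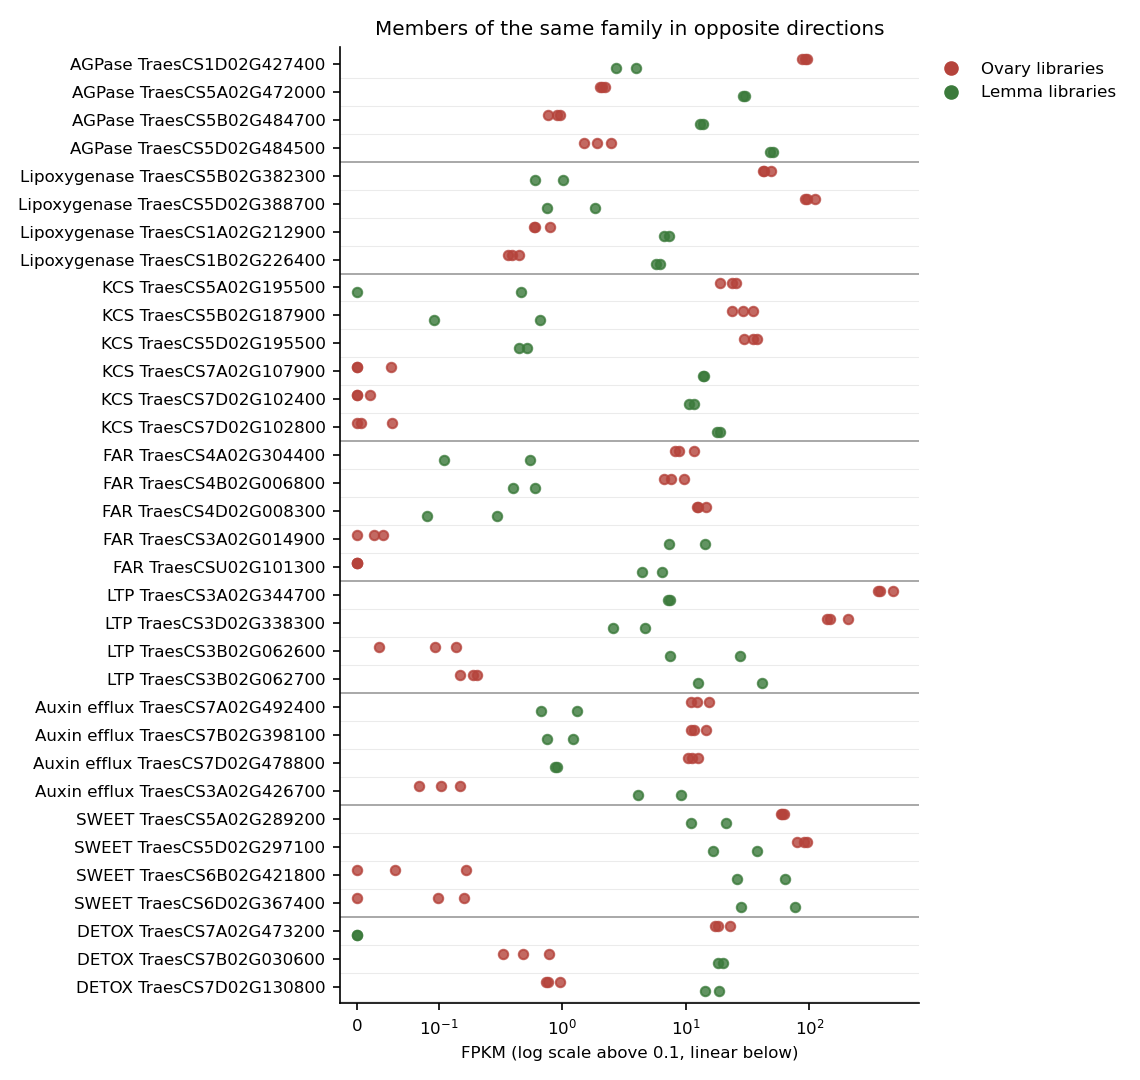
FPKM of members of 8 families that were called in opposite directions, one point a library (Ovary red, Lemma green), on an axis that is logarithmic above 0.1 and linear below; grey lines part the families. AGPase is glucose-1-phosphate adenylyltransferase, KCS 3-ketoacyl-CoA synthase, FAR fatty acyl-CoA reductase, LTP lipid-transfer protein and DETOX DETOXIFICATION transporter. By the choice of families, in each at least 1 member has its Ovary points right of its Lemma points and at least 1 has them left.

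In surface lipids, different copies were the higher ones in each organ. 3-ketoacyl-CoA synthases elongate the fatty acids of wax and of seed and pollen lipids, and were 31 higher and 33 lower of 97, a balance that turned under 6 of the alternatives. TraesCS5D02G195500 had 29.8, 35.2 and 38.0 FPKM in the Ovary libraries, against 0.445 and 0.513 FPKM in the Lemma libraries, and its counterparts TraesCS5A02G195500 and TraesCS5B02G187900 followed it. TraesCS7D02G102800 had 0.0426, 0.00503 and 0 FPKM in Ovary and 17.8 and 19.0 FPKM in Lemma, and TraesCS7A02G107900 and TraesCS7D02G102400 followed that direction. The group 5 copies were called at log2 fold changes of 5.53, 5.94 and 5.63, and the group 7 copies at -10.56, -10.62 and -11.36. Fatty acyl-CoA reductases, which turn such fatty acids into alcohols of wax and of the pollen wall, were 9 higher and 14 lower of 30: TraesCS4D02G008300 had 12.6, 14.6 and 12.3 FPKM in Ovary and 0.0852 and 0.297 FPKM in Lemma, and TraesCS3A02G014900 had 0.0324, 0 and 0.0212 FPKM in Ovary and 7.23 and 14.2 FPKM in Lemma.

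Non-specific lipid-transfer proteins, small secreted carriers of lipids, were lower in 15 and higher in 5 of 32. Against that direction, TraesCS3A02G344700 had 372, 360.5 and 472 FPKM in the Ovary libraries, against 7.14 and 7.49 FPKM in the Lemma libraries (log2 fold change 5.16, SE 0.42, adjusted p = 2.93e-05). Every Ovary library was above 360 FPKM and both Lemma libraries were under 8 FPKM. TraesCS3B02G062700 had 0.205, 0.188 and 0.149 FPKM in Ovary and 12.6 and 41.0 FPKM in Lemma, with Lemma replicate 3 above replicate 1. CASP-like genes, whose relatives in Arabidopsis set up barriers in the cell wall, were higher in 36 and lower in 19 of 106. These are 34.0% and 17.9%, against 20.4% and 22.4% of all genes. TraesCS5A02G527800, with 8.50, 7.71 and 8.40 FPKM in Ovary and 0 and 0 FPKM in Lemma, had no counts in Lemma or Anther.

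Expansins, pectinesterases, xyloglucan endotransglucosylase/hydrolases and polygalacturonases had more members higher than lower in Ovary. The shares higher were 69.7%, 50.9%, 38.3% and 41.3% in that order, against 20.4% of all genes. The shares lower were 0%, 5.26%, 14.8% and 10.9%, against 22.4% of all genes. Pectin acetylesterases were 11 higher and 13 lower of 38 (28.9% and 34.2%), a balance that turned under 6 alternatives. Expansins, which loosen walls in growing cells, were higher in 23 and lower in 0 of 33 (median 2.95). TraesCS5A02G481200 had 27.0, 23.5 and 12.9 FPKM in the Ovary libraries, against 0.303 and 0.598 FPKM in the Lemma libraries (log2 fold change 4.92, SE 0.50, adjusted p = 0.000102). Pectinesterases, which remove methyl groups from pectin, were higher in 29 and lower in 3 of 57, with TraesCS5A02G434700 at 17.5, 12.4 and 22.1 FPKM in Ovary and 0.228 and 0.414 FPKM in Lemma. Xyloglucan endotransglucosylase/hydrolases, which cut and rejoin wall polymers, were higher in 31 and lower in 12 of 81, and without Lemma replicate 1 in 16 and 10. Their summed level was 1335, 1242 and 572 FPKM in the Ovary libraries, against 184 and 359 FPKM in the Lemma libraries, with Ovary replicate 3 well below the other Ovary libraries and Lemma replicate 1 below replicate 3. Single members need not follow the sum. TraesCS5A02G203300 had 8.67, 10.6 and 12.4 FPKM in Ovary and 0.0409 and 0 FPKM in Lemma, and TraesCS1D02G199300 had 5.13, 5.46 and 4.73 FPKM in Ovary and 16.2 and 21.3 FPKM in Lemma. Polygalacturonase genes by ontology were higher in 38 and lower in 10 of 92.

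Laccases, dirigent proteins and phenylalanine ammonia-lyases had more members lower than higher in Ovary. The shares lower were 56.4%, 47.5% and 48.4% in that order, against 22.4% of all genes. The shares higher were 2.56%, 8.2% and 3.23%, against 20.4% of all genes. Laccases, which polymerise lignin precursors, were lower in 22 and higher in 1 of 39 (median -2.68). TraesCS3D02G358500 had 0.0690, 0.0398 and 0.0339 FPKM in the Ovary libraries, against 8.52 and 6.95 FPKM in the Lemma libraries (log2 fold change -7.84, SE 0.47, adjusted p = 6.29e-06). Dirigent proteins, which steer the coupling of phenolic radicals, were lower in 29 and higher in 5 of 61, and TraesCS4A02G050900 had 0.221, 0 and 0.0363 FPKM in Ovary and 35.9 and 50.1 FPKM in Lemma. Phenylalanine ammonia-lyases, at the entry to phenolic synthesis, were lower in 15 and higher in 1 of 31, and without Lemma replicate 1 in 9 and 0. Their summed level was 184, 133 and 42.7 FPKM in the Ovary libraries, against 242 and 198 FPKM in the Lemma libraries, with Ovary replicate 3 far below the other Ovary libraries. Cellulose synthases were 21 lower and 11 higher of 72 (29.2% and 15.3%). TraesCS5A02G222500 had 1.65, 2.41 and 1.62 FPKM in Ovary and 38.9 and 23.6 FPKM in Lemma. COBRA-like genes, some of which act in cellulose deposition, were 7 higher and 5 lower of 24 (29.2% and 20.8%). The lower ones were led by TraesCS5B02G101400, with 1.25, 2.24 and 1.53 FPKM in Ovary and 31.7 and 22.4 FPKM in Lemma. Peroxidases were 80 higher and 50 lower of 234, or 34.2% and 21.4%, against 20.4% and 22.4% of all genes. TraesCS2D02G081900 had 5.70, 6.93 and 6.32 FPKM in Ovary and 0 and 0.0240 FPKM in Lemma, whereas TraesCS2A02G263500 had 0.0807, 0.0885 and 0.0789 FPKM in Ovary and 28.4 and 30.4 FPKM in Lemma.

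A cinnamyl-alcohol dehydrogenase activity, the last step to the lignin alcohols, went the other way in 3 genes. TraesCS2B02G444200 had 25.7, 29.1 and 29.7 FPKM in the Ovary libraries, against 0.0535 and 0.649 FPKM in the Lemma libraries, and TraesCS2A02G424600 and TraesCS2D02G422400 were higher as well, at log2 fold changes of 7.71 and 6.00. The gene described as cinnamyl alcohol dehydrogenase 12 (TraesCS7A02G350500) had 0.472, 0.130 and 0.168 FPKM in Ovary and 5.49 and 7.07 FPKM in Lemma. These 4 belong to a list of 12 other lignin synthesis genes, 3 higher and 4 lower, whose balance turned under 1 alternative.

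Hormone genes as a whole stood near the background, with 73 higher and 83 lower of 365 tested genes in 10 lists. Auxin response factors, the transcription factors of the auxin response, were higher in 15 and lower in 5 of 67, or 22.4% and 7.46%, so the share higher was near the 20.4% of all genes and the share lower under their 22.4%. TraesCS7D02G449900 had 39.7, 46.9 and 47.9 FPKM in the Ovary libraries, against 5.67 and 5.73 FPKM in the Lemma libraries (log2 fold change 2.35, SE 0.20, adjusted p = 3.63e-05), and TraesCS2D02G307600 had 16.4, 17.8 and 16.8 FPKM in Ovary and 35.3 and 27.9 FPKM in Lemma. With total counts alone TraesCS2D02G307600 no longer reached 2-fold, at a log2 fold change of -0.85. Auxin efflux carriers were 5 higher and 6 lower of 29, a balance that turned under 6 alternatives. The set TraesCS7A02G492400, TraesCS7B02G398100 and TraesCS7D02G478800 on 7A, 7B and 7D was higher in each copy, with 11.1, 12.3 and 15.5 FPKM in Ovary and 0.673 and 1.32 FPKM in Lemma for the first, whereas TraesCS3A02G426700 had 0.148, 0.103 and 0.0764 FPKM in Ovary and 9.15 and 4.12 FPKM in Lemma. Aux/IAA repressors were 11 higher and 20 lower of 75 (14.7% and 26.7%, against 20.4% and 22.4% of all genes), which turned under 3 alternatives.

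Gibberellin metabolism genes were higher in 8 and lower in 2 of 19. The gene TraesCS2D02G375300, described as GA2ox-D6 and so placed with the enzymes that break gibberellin down, had 17.2, 13.9 and 8.82 FPKM in Ovary and 2.17 and 1.59 FPKM in Lemma, and was highest in Anther at 32.0 FPKM. The 2 lower genes have GA2ox descriptions as well, so that class went both ways. They are GA2ox-B4 (TraesCS1B02G347600) and GA2ox-D7 (TraesCS3D02G149600), at log2 fold changes of -4.21 and -2.84. Type-LOG genes, which release active cytokinin, were 9 higher and 7 lower of 27, turned under 1 alternative. TraesCS5A02G347400, whose call ended without Lemma replicate 1 (log2 fold change 0.86) and without Ovary replicate 2 or 3, had 13.1, 15.4 and 18.2 FPKM in Ovary and 2.16 and 5.57 FPKM in Lemma, and TraesCS3A02G251500 had 1.58, 1.09 and 0.693 FPKM in Ovary and 4.93 and 7.28 FPKM in Lemma. Among genes with an ontology term for abscisic acid signalling, 14 were higher and 18 lower of 64, turned under 4 alternatives. A set on group 2, TraesCS2A02G334000, TraesCS2B02G347200 and TraesCS2D02G328200, annotated as binding abscisic acid and inhibiting phosphatases, was higher in each copy; TraesCS2A02G334000 had 32.3, 40.5 and 38.5 FPKM in Ovary and 0.151 and 0.607 FPKM in Lemma.

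Defensins and related antimicrobial peptides were higher in 7 and lower in 0 of 11 (median 5.13, or 4.56 at the bounds). TraesCS1D02G052900 had 153, 166 and 225 FPKM in the Ovary libraries, against 0.156 and 0.537 FPKM in the Lemma libraries (log2 fold change 8.38, SE 0.71, adjusted p = 3.97e-05). TraesCS1A02G050700 had 55.9, 59.7 and 91.4 FPKM in Ovary and 0.0300 and 0.224 FPKM in Lemma, and TraesCS1A02G050600 had 56.8, 71.3 and 114 FPKM in Ovary and 0.218 and 1.01 FPKM in Lemma. In all 3, Ovary replicate 3 was the highest library and Lemma replicate 3 exceeded replicate 1. DETOXIFICATION transporters were lower in 66 and higher in 24 of 156, although the family also held the Lemma-silent gene above; TraesCS7B02G030600 averaged 0.527 ± 0.226 FPKM in Ovary and 19.1 ± 1.37 FPKM in Lemma.

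NAC and WRKY transcription factors, families known for senescence and stress responses, had more members lower than higher in Ovary. Of 12 NAC genes 8 were lower and 0 higher, and of 16 WRKY genes 5 were lower and 1 higher. The shares lower were 66.7% of NAC and 31.2% of WRKY genes, against 22.4% of all genes, so WRKY was the nearer to that background. The shares higher were 0% and 6.25%, against 20.4%. NAC transcription factor 6A (TraesCS3A02G406000) had 4.00, 2.08 and 0.964 FPKM in the Ovary libraries, against 43.7 and 46.0 FPKM in the Lemma libraries (log2 fold change -4.84, SE 0.56, adjusted p = 0.000211). Its counterparts 6B (TraesCS3B02G439600) and 6D (TraesCS3D02G401200) had log2 fold changes of -4.78 and -4.04. WRKY1A (TraesCS2B02G187500) had 0.492, 0.529 and 0.0975 FPKM in Ovary and 12.2 and 9.76 FPKM in Lemma. Dehydrins and late embryogenesis abundant proteins, which protect cells from drying, were lower in 5 and higher in 1 of 12 (41.7% and 8.33%). A COR protein gene of that group (TraesCS5A02G503900) had 0.160, 0.109 and 0.0723 FPKM in Ovary and 94.3 and 129 FPKM in Lemma.

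Ovary replicate 3 was the lowest library for the NAC and WRKY lists. It was also lowest for CBF transcription factors, trehalose phosphatases and the dehydrin group, among others, and highest for other lists such as core histones. CBF genes summed to 410, 425 and 82.0 FPKM in the Ovary libraries, against 278 and 331 FPKM in the Lemma libraries. NAC genes took 0.0327, 0.0253 and 0.00886% of the counts in the Ovary libraries, against 0.0581 and 0.0613% in the Lemma libraries. WRKY genes took 0.0411, 0.0355 and 0.0131% of the counts in the Ovary libraries, against 0.0427 and 0.0466% in the Lemma libraries, so Ovary replicate 1 was close to Lemma. Without Ovary replicate 3, 9 NAC and 4 WRKY genes were lower and 0 and 0 higher. The plot of Ovary libraries shows 13 genes that were chosen after their values were seen, because Ovary replicate 3 was low in them. Abscisic acid response gene TraesCS3A02G347500 had 6.02, 3.37 and 0.555 FPKM in Ovary and 61.1 and 58.1 FPKM in Lemma. The mitogen-activated protein kinase gene TraesCS4D02G198600, for a signalling kinase, had 6.04, 2.94 and 0.320 FPKM in Ovary and 30.5 and 34.1 FPKM in Lemma. All 13 were called, and both Lemma libraries lay above every Ovary library, which the rule for naming list members required. A cause for this spread was not tested. Without Ovary replicate 3, the genes called were 14652 higher and 16578 lower.

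**Figure D5:**
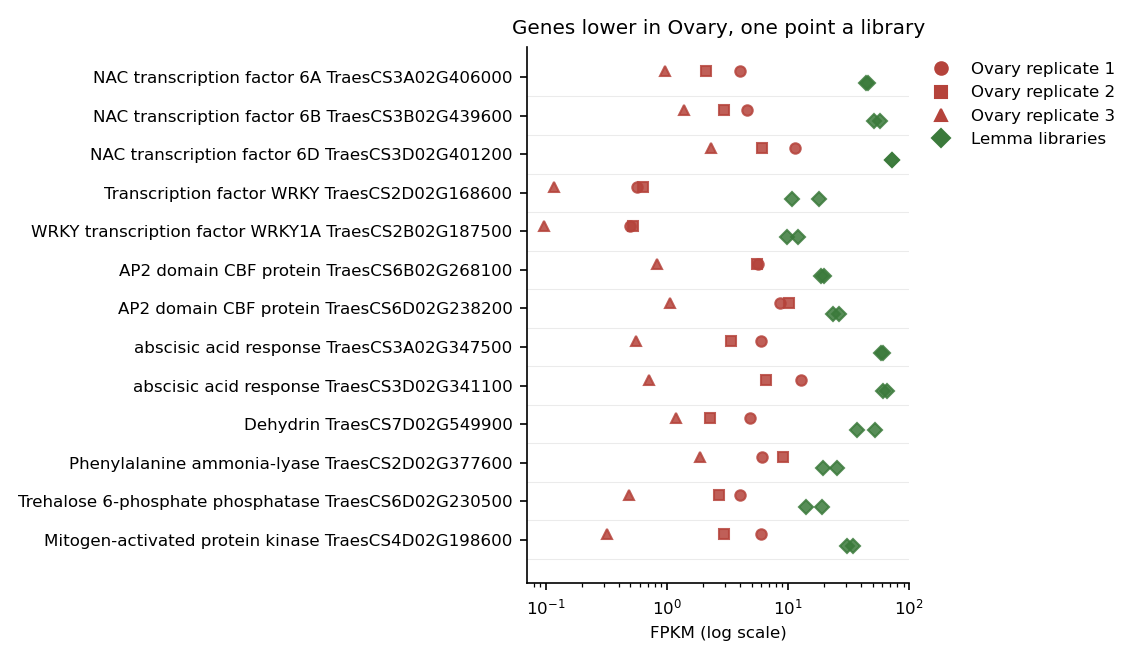
FPKM (logarithmic axis) of 13 genes called lower in Ovary, with a separate red symbol for each Ovary library and green diamonds for the Lemma libraries. Ovary replicate 3 (triangle) is lowest for each gene and the Lemma libraries stand above all Ovary libraries, both of which follow from how the genes were chosen.

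The most abundant described genes of Ovary, by mean FPKM, were of general function. Among the 8 were 3 entries for small subunit ribosomal RNA, a gene for S-adenosylmethionine decarboxylase, 3 for peptidyl-prolyl isomerases and 1 for a high mobility group protein, and 0 of the 8 were called. In Lemma the 8 were 6 Rubisco small chain genes and 2 carbonic anhydrase genes, and all 8 were called lower in Ovary.

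The 10 described genes with the largest fall also held genes of lipids and calcium binding. A very-long-chain 3-hydroxyacyl-CoA dehydratase gene (TraesCS3D02G075500), the partner of 3-ketoacyl-CoA synthase in elongation, had 0, 0 and 0 FPKM in the Ovary libraries, against 11.7 and 13.5 FPKM in the Lemma libraries and was at least 2118-fold lower in Ovary. An EF-hand calcium-binding protein gene (TraesCS6D02G149300) had 0.154, 0.117 and 0.0827 FPKM in Ovary and 204 and 117 FPKM in Lemma. A caleosin gene (TraesCS6A02G162900), for a calcium-binding protein of lipid bodies, had 0.0910, 0.209 and 0 FPKM in Ovary and 155 and 101 FPKM in Lemma. Absence of overlap between the organs was a condition for choosing these genes. The caleosin passed with log2 fold change -10.79, SE 0.79, adjusted p = 1.71e-05. Genes with no name or description went as far: TraesCS1B02G141100 and TraesCS3D02G097700 had no counts in Lemma, and TraesCSU02G024000 and TraesCS5A02G501500 none in Ovary. TraesCS1B02G141100 averaged 15.7 ± 12.7 FPKM in Ovary and 0 ± 0 FPKM in Lemma, with 2.90 FPKM in Ovary replicate 3 far below the 28.3 FPKM of replicate 1. TraesCS3D02G097700 had 9.65, 11.6 and 12.9 FPKM in Ovary and 0 and 0 FPKM in Lemma, and TraesCS5A02G501500 had 0, 0 and 0 FPKM in Ovary and 22.0 and 12.5 FPKM in Lemma.

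Pathway assignments, which are part of the deposited annotation, were counted apart from the text lists. Among 130 pathways with at least 20 tested genes, the largest shares called higher were DNA replication with 54.0% of 213 genes, globo and isoglobo glycosphingolipid synthesis with 53.5% of 43, base excision repair with 47.7% of 155, mismatch repair with 43.7% of 213 and ganglio series glycosphingolipid synthesis with 39.6% of 101. The glycosphingolipid names are those of the annotation, and no role in plants is implied. The largest shares called lower were photosynthesis antenna proteins with 98.9% of 87 genes, photosynthesis with 75.5% of 278, monoterpenoid synthesis with 67.3% of 49, vitamin B6 metabolism with 66.0% of 50 and lipoic acid metabolism with 65.2% of 23. The background is 20.4% higher and 22.4% lower.

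Bread wheat carries 3 subgenomes, named A, B and D. Genes on A chromosomes were called higher in 20.1% and lower in 21.9% of 24955 cases, genes on B chromosomes in 20.8% and 21.9% of 24760, and genes on D chromosomes in 20.7% and 23.3% of 24862. No test was run on these shares.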

How the data were processed

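RNA-seq libraries of the wheat floret were analysed from a table of 100591 genes that holds, for each library, the counts and the FPKM deposited by the authors, per the file headers. How the reads were counted is not given in the sources used here: the submitters' processing notes name Bowtie 0.12.2 and the mouse build mm8, which cannot hold wheat genes. Coordinates are those of the deposited table, whose wheat build is not given in the sources used here. Per the labels' protocols, RNA had an integrity number of at least 7.

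Ovary (n = 3), Lemma (n = 2) and Anther (n = 3) libraries entered 1 edgeR 4.0.16 quasi-likelihood fit in R 4.3.3, with TMM factors, filterByExpr and robust dispersion, and the contrast was Ovary minus Lemma. The test is two-sided with Benjamini-Hochberg adjustment over all 76348 genes tested. A gene was called at adjusted p under 0.05 and at least 2-fold. SE is the log2 fold change over the root of F. Folds against an organ at 0 set that organ to 3 counts in all. No 2 libraries of an organ agreed within sampling noise (chi-square per degree of freedom of 33.0 to 102 in Ovary and 57.0 in Lemma).

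The text names the 10 described genes with the largest rise and fall at 10 FPKM or more, and 2 undescribed genes a direction. It also names up to 3 called members a list and direction at 5 FPKM or more. All of these had to be called and to show no overlap of FPKM between the organs, so neither is a finding about them. Organ markers and the 8 most abundant genes an organ were named without that condition. The 72 lists, their members and the tests were chosen with earlier results of these data known. Alternatives used limma 3.58.1, DESeq2 1.42.0, other scalings and filters, a replicate block and each library left out.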

Additional observations from a re-analysis of the deposited data

How the results depend on the processing

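The count of genes called higher in Ovary moved by over 1.5 times with total counts alone as the scale (26767), an alternative chosen after seeing the data, with limma on log2(FPKM + 0.1) (25786), and at 4-fold (9369); the count called lower moved with limma on log2(FPKM + 1) (9030). Upper-quartile scaling gave 56.0% of calls higher, and moved the median log2 fold change of all genes to 0.31. Leaving out each library gave 13774 to 15074 genes higher and 14783 to 16817 lower. A fit with the replicate block gave 12904 higher and 14099 lower; deviations from the organ means correlated at -0.042 and -0.060 between Ovary and Lemma libraries of the same number, so the numbers are not taken to pair the samples. Of 2160 counts of list members under the alternatives, 1839 stayed within 1.5 times, and 127 of 137 called genes named in the text were called in every alternative that tests them. RAFTIN1A (TraesCS7A02G239800), which was not called, turned to a log2 fold change of 0.019 with limma on log2(FPKM + 0.1), and ranged from -1.84 to 6.75 with a library left out, the highest without Lemma replicate 1, which leaves only a Lemma library with no counts. Depth limits genes near 0: folds there are bounds that cover counting error only. With 2 Lemma libraries, leaving 1 out assumes that the lone library varies like the other organs.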

Other observations

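Counts for other lists follow, beside 20.4% higher and 22.4% lower over all genes. Ammonium transporters, which take up or retrieve nitrogen, were lower in Ovary in 7 and higher in 0 of 15, and TraesCS2A02G365000 had 0.0315, 0.0299 and 0.158 FPKM in Ovary and 9.96 and 10.8 FPKM in Lemma. AT-hook nuclear-localized genes were higher in 4 and lower in 0 of 12, with 0 to 8 higher over the alternatives (0 among genes with a mean of at least 1 FPKM and with limma on log2(FPKM + 1)). Two-component response regulators, of the cytokinin response, were lower in 7 and higher in 0 of 19, a direction that turned under 3 alternatives. Alpha- and beta-amylases, which degrade starch, were 10 higher and 7 lower of 40 (25.0% and 17.5%), near the shares over all genes: TraesCS7A02G383900 had 8.54, 8.99 and 7.79 FPKM in Ovary and 1.34 and 1.17 FPKM in Lemma, and TraesCS3A02G248000 had 2.45, 2.08 and 2.03 FPKM in Ovary and 6.59 and 5.63 FPKM in Lemma. rRNA N-glycosidases, which inactivate ribosomes, were 11 higher and 5 lower of 27, and TraesCS3D02G516000 had 8.72, 11.6 and 14.1 FPKM in Ovary and 0 and 0.0444 FPKM in Lemma.

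Genes with an ontology term for ovule, embryo sac or carpel did not stand to one side, with 16 higher and 21 lower of 90 and a balance that turned under 4 alternatives. The members with the largest fall, TraesCS2D02G057900 and TraesCS2A02G058700, also carry terms for thylakoids and photosystem I assembly. TraesCS2D02G057900 had 0.758, 0.580 and 0.724 FPKM in Ovary and 38.0 and 43.7 FPKM in Lemma. Genes with a term for stomata were 22 higher and 19 lower of 71, turned under 3 alternatives. EPIDERMAL PATTERNING FACTOR-like protein 1 (TraesCS6D02G296500) had 6.38, 6.62 and 6.30 FPKM in Ovary and 0.0293 and 0.174 FPKM in Lemma.

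A phenylalanine ammonia-lyase gene, TraesCS1B02G122800, was called higher on unequal libraries, at 13.3, 3.81 and 0.508 FPKM in the Ovary libraries, against 0.302 and 0.229 FPKM in the Lemma libraries. Ovary replicate 3 was far nearer to Lemma than to Ovary replicate 1, and the call ended under 5 alternatives (adjusted p = 0.118 without Lemma replicate 1). Potassium transporter TraesCS6A02G062700 had 8.84, 7.55 and 2.02 FPKM in Ovary and 0 and 0.299 FPKM in Lemma, again with Ovary replicate 3 lowest, and its call ended under 5 alternatives (adjusted p = 0.116 without Lemma replicate 1).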
